A study of Homo sapiens with 2 samples.

Results

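The chromatin intervals described here were those that an antibody against TCF19 enriched in both of 2 cell populations and that lay at an end of a protein-coding gene. They were chosen from the peak lists themselves: an interval of the overexpression list on chromosomes 1 to 22 or X was taken if it overlapped an interval of the control list by at least 1 bp and had a summit within 1000 bp of either end of a protein-coding gene in the RefSeq table of GRCh38.p14. This gave 9377 intervals of 101370 in the overexpression list, or 9.25% (background over the whole list, fixed by the rule). They were 13.7% of the 68286 overexpression intervals that overlapped a control interval and 67.5% of the 13890 that lay at a gene end. Overlap and position were the criteria of choice, so they are given as a description without a test.

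The cells were Ishikawa, a line derived from a human endometrial adenocarcinoma. Both populations went through lentiviral infection and puromycin selection, and both were immunoprecipitated with the same TCF19 antibody. The control group carried a control virus and the other group a virus that overexpressed TCF19, with no engineered deletion stated for either. Each group was 1 library of 1 cell line, so no test between the groups was possible, every value below is a description of these 2 libraries, and a difference between them cannot be told apart from a difference between any 2 preparations. The peak lists do not measure how much TCF19 the cells made, and the TCF19 gene itself was not among the genes with a shared interval. Whether the cells expressed endometrial genes cannot be read from the lists either.

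TCF19 is found in the nucleus. It has a PHD finger, a small zinc-binding fold that in many proteins reads the tail of histone H3, and a forkhead-associated domain, a fold that can bind phosphorylated proteins. It is known as a gene of proliferating cells. Active gene starts carry open chromatin, RNA polymerase II and histone H3 methylated on lysine, and in vertebrates many of them sit in CpG islands, stretches rich in G, C and the dinucleotide CpG. No input or unspecific antibody library was analysed here.

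The bases upstream of 6 gene starts are shown first because they stand at the extremes of the comparison between the libraries: 3 genes of the highest and 3 of the lowest ratio of summit read depth, among the intervals at gene starts with a reference promoter. This choice of sequences was made after the values were seen. Each run is the 250 bases before the annotated start, in the direction of transcription, from RefSeq promoters of GRCh38.p14, and capitals mark a match to one of 10 short motifs on either strand. Pileup is the number of overlapping fragments at the summit. DEPDC1, a gene of mitotic cells, had a pileup of 24 with overexpression and 6 in control; the run is chr1:68497083-68497332 on the minus strand, with a CCAAT box and an E-box (CACGTG). NUP133, a scaffold subunit of the nuclear pore, had 20 and 6; the run is chr1:229508342-229508591 on the minus strand, with a cyclic AMP response element (TGACGTCA) and 2 GC boxes (GGGCGG) on the opposite strand. DGUOK, a mitochondrial deoxyguanosine kinase, had 26 and 8; the run is chr2:73926630-73926879 on the plus strand, with a CCAAT box and a GC box.
DEPDC1: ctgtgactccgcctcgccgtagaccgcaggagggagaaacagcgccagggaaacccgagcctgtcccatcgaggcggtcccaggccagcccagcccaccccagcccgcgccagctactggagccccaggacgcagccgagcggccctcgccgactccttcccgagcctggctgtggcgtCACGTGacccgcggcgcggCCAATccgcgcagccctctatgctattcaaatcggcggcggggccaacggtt
NUP133: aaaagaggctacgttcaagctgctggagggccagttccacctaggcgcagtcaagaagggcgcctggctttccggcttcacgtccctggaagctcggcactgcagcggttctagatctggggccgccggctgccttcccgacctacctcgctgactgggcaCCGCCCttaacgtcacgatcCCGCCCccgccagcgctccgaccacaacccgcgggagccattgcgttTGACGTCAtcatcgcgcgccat
DGUOK: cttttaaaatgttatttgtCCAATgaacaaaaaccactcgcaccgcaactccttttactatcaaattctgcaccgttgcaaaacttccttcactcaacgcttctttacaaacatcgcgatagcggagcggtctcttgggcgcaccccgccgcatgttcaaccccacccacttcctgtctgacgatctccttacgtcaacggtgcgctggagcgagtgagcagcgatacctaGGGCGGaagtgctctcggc

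At the other extreme, GSG1L2 had a pileup of 11 with overexpression and 27 in control; the run is chr17:9822080-9822329 on the minus strand, with an E-box. DCD, which encodes the sweat-gland peptide dermcidin, had 10 and 24; the run is chr12:54648366-54648615 on the minus strand, with a CCAAT box on the opposite strand and CTTTGTT, a core shared by TCF/LEF and SOX factors. NMUR2, a neuromedin U receptor, had 8 and 18; the run is chr5:152405280-152405529 on the minus strand, with a CCAAT box on the opposite strand. The NMUR2 summit lay 742 bp downstream of the start, so its interval did not reach the printed bases.
GSG1L2: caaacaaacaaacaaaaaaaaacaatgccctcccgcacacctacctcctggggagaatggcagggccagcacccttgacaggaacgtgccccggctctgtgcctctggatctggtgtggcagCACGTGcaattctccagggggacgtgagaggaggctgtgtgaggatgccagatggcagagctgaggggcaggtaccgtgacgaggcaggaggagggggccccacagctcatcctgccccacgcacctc
DCD: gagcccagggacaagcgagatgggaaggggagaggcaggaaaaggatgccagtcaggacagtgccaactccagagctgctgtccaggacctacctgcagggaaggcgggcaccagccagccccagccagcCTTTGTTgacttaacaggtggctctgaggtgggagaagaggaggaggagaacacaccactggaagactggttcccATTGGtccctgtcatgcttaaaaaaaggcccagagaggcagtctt
NMUR2: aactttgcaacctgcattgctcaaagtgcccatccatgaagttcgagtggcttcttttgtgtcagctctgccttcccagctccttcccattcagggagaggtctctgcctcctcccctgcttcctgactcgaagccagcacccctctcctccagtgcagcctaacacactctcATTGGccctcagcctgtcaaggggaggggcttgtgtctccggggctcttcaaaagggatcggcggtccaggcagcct

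The 3 promoters of high ratio were rich in CpG and the 3 of low ratio were not. Over the 300 bases from 250 before to 50 after the start, the ratio of observed to expected CpG was 0.93 at DEPDC1, 0.94 at NUP133 and 1.16 at DGUOK. It was 0.31 at GSG1L2, 0.08 at DCD and 0.25 at NMUR2. Their GC content overlapped, at 71.3%, 63.7% and 54.0% in the first set and 62.0%, 57.0% and 57.3% in the second. These 6 were picked by their ratio and are examples only; all promoters with a shared interval are counted further on.

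Shared intervals touched nearly as many genes as there were intervals. The ends of 9330 of 19974 protein-coding genes held one, or 46.7%, which is the background for the gene lists below. Genes with a shared interval had a median length of 38319 bp, against 16038 bp for the others. The strand was known for 15812 genes, and of these 45.1% had a shared interval at the start and 6.24% at the stop. Among the 7585 intervals with a known strand, 6911 lay at a start, or 91.1% (95% Wilson interval 90.5 to 91.7%). The same share was 82.5% of 3619 gene-end intervals of the overexpression list alone and 55.5% of 2090 of the control list alone. Shared gene-end intervals were thus mainly gene-start intervals, and the ones called in control alone were split almost evenly between starts and stops. Only 229 of 8923 genes longer than 20 kb had one at both ends.

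Some intervals held the ends of several genes. The window of 1066 intervals held ends of at least 2 genes, and 465 (4.96%) joined the starts of a head-to-head pair, that is, neighbouring genes transcribed away from each other. Of the gene-end intervals called in the control list alone 1.59% were of this kind, and of those of the overexpression list alone 5.58%. PHB2, a mitochondrial prohibitin, and its neighbour EMG1 were one such pair, with a pileup of 34 with overexpression and 18 in control. SDHA, a subunit of succinate dehydrogenase, and CCDC127 had 32 and 19. HSPD1 and HSPE1, the mitochondrial chaperonin and its partner, had 24 and 15 in an interval of 1001 bp (871 bp in control). Other head-to-head pairs differed little, with 24 and 25 at MGAT2 and RPL36AL and 22 and 26 at DRC9 and LMLN. With each pileup divided by the genome average of its library, their log2 ratios were 0.09 and -0.09. These 5 pairs were named as examples after their values were seen.

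Many shared intervals held more than 1 summit. There were 2963 with at least 2, or 31.6%, and 64 with at least 4. The share was 10.6% in gene-end intervals of the overexpression list alone, 7.91% in shared intervals over 10 kb from any gene end and 2.46% in gene-end intervals of the control list alone. Median width went with the number of summits, from 574 bp with 1 summit to 1002 bp with 2, 1399 bp with 3 and 1667 bp with at least 4. The highest summit itself lay within 1000 bp of a gene end in 97.6% of intervals.

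Pairing the lists was simple for most intervals. Of the 9377, 8674 overlapped 1 control interval, 692 overlapped 2 and 11 overlapped 3. In all they met 9791 control intervals, and 9341 of these (95.4%) also had a control summit at a gene end. A 1-to-1 pair, in which neither interval overlapped another, could be made for 8026 (85.6%), and medians and shares of widths, summits and pileups are taken over these pairs. Single intervals outside them are given with the control interval of largest overlap. Among those named below by pileup, these are DHX32, KMT2D, 1 of the 2 at CYP2D6, RPS29, ATP5PD, MRPS7, KDM6A, GINS2 and GREB1.

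At gene ends the overexpression intervals were the wider ones. Their median width was 700 bp (quartiles 487 and 941 bp) with overexpression and 562 bp (395 and 804 bp) in control. The median difference within a pair was 76 bp, with quartiles of -78 and 269 bp, so many single pairs went the other way. The overexpression interval was wider in 63.1% of the pairs, against 47.5% of all 64170 shared 1-to-1 pairs. It was at least 2 times as wide in 1058 pairs (13.2%, against 4.33% of all shared pairs), and the control interval was at least 2 times as wide in 199 (2.48%, against 5.14%). In the 45283 shared pairs over 10 kb from gene ends the order was the opposite, with medians of 436 bp with overexpression and 464 bp in control and a median difference of -21 bp. When at least 50% of both intervals had to overlap, the median difference at gene ends was 41 bp.

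**Figure D1:**
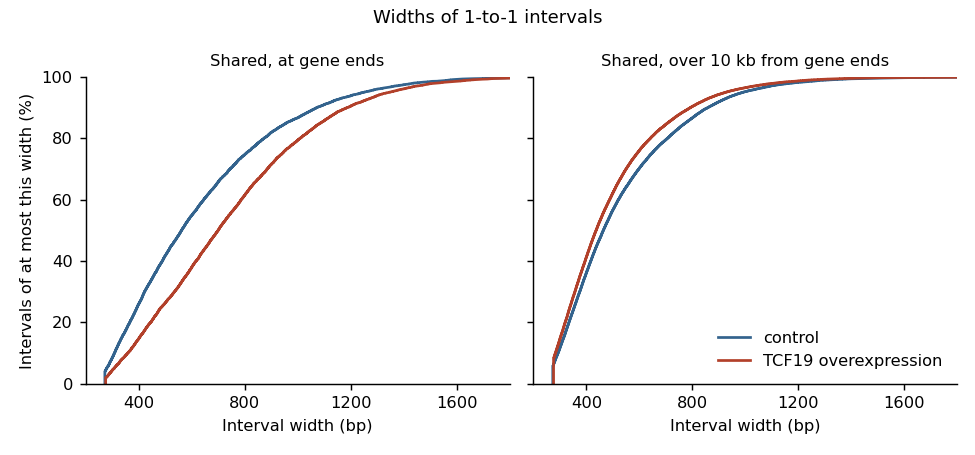
Cumulative share of 1-to-1 shared intervals (%) by interval width (bp) in control and with TCF19 overexpression, at gene ends (left, 8026 pairs) and over 10 kb from gene ends (right, 45283 pairs). The overexpression curve lies to the right of control at gene ends (medians 700 and 562 bp) and slightly to its left away from them (436 and 464 bp).

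The widest interval, at chr12:12723626-12726038, was 2413 bp with overexpression and 1701 bp in control; it is named for APOLD1, the gene end its summit in the window was nearest to, while its highest summit lay outside the window. An interval near ECE2, a peptidase related to the endothelin-converting enzymes, measured 2340 bp with overexpression and 1168 bp in control. That at DNER, a Notch-related neuronal receptor, measured 2243 and 818 bp. At DYRK2, a protein kinase, the widths were 2230 and 1610 bp, and at CCDC92 and ZNF664 they were 2185 and 492 bp. At SOWAHC and SEPTIN10 they were 2160 and 918 bp. The overexpression interval was the wider in all 6, which were picked for their overexpression width. ECE2, DNER, DYRK2 and SOWAHC were not 1-to-1 pairs, so the control width is that of the interval with the largest overlap.

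Summits of the 2 libraries lay farther apart at gene ends than over 10 kb from them. The median distance between the highest summits of a pair was 145 bp (quartiles 62 and 293 bp), against 83 bp (37 and 163 bp) over 10 kb from gene ends. Summits lay within 100 bp of each other in 38.2% of gene-end pairs and 57.3% of the distant ones, and within 200 bp in 61.6% and 81.3%. Taking the nearest pair of summits in place of the highest ones gave 101 bp. Distance went up with read depth at gene ends: for pairs whose lower pileup was under 10, the median was 124 bp, and it was 142 bp from 10 to under 15, 160 bp from 15 to under 20 and 171 bp from 20 upwards. In distant pairs the same classes gave 81, 79, 104 and 70 bp. Width and the number of summits were larger at gene ends too, as given above, and their part in the distance was not tested.

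Exact agreement was rare. The summit was at the same base in 17 of 8026 pairs. YY1, a zinc finger transcription factor, was one of them, with the summit of both libraries at position 100238404 of chromosome 14 and pileups of 25 with overexpression and 17 in control. PAPOLG, a poly(A) polymerase, had its summit in both at position 60756606 of chromosome 2, with 22 and 15. TMEM43 and CHCHD4 shared a summit 194 bp downstream of the TMEM43 start, with 23 and 18. At SSC4D (18 and 18), PCDHA9 (15 and 17) and CACNG8 (17 and 15) the summits were also identical. The other extreme was CCNK, which encodes cyclin K, with summits 1425 bp apart in intervals of 2021 and 1467 bp. SYNDIG1, a synapse protein, had them 1373 bp apart, AKAP12, an anchor of protein kinase A, 1242 bp, SH3RF3 1218 bp and LHFPL3 1199 bp. TPTE, at 1391 bp, has near copies in the genome and is uncertain. Each of these 6 pairs had at least 2 summits in one library or in both. At CCNK and AKAP12 the highest overexpression summit lay outside the window, and the gene is that nearest to another summit of the interval.

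Along the gene, summits at starts sat just downstream. Among 5684 1-to-1 pairs at starts of known strand, the median summit was 178 bp downstream of the start with overexpression and 212 bp downstream in control. Summits lay at or downstream of the start in 74.6% and 75.2%. They were within 200 bp of it in 43.1% (41.8 to 44.3%) with overexpression and in 35.9% (34.7 to 37.2%) in control. The overexpression summit was the nearer to the start in 58.3% of pairs and the control summit in 41.5%. This comparison is not even-handed, because the rule held the overexpression summit to the window and left the control summit free; 173 control summits (3.04%) were more than 1000 bp away. The median shift within a pair was only -19 bp (towards upstream), with quartiles of -172 and 127 bp. The extra width lay more upstream than downstream. The overexpression interval reached farther upstream in 62.3% of pairs and farther downstream in 55.3%, and over all pairs its median reach past the control interval was 52 bp upstream and 20 bp downstream.

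**Figure D2:**
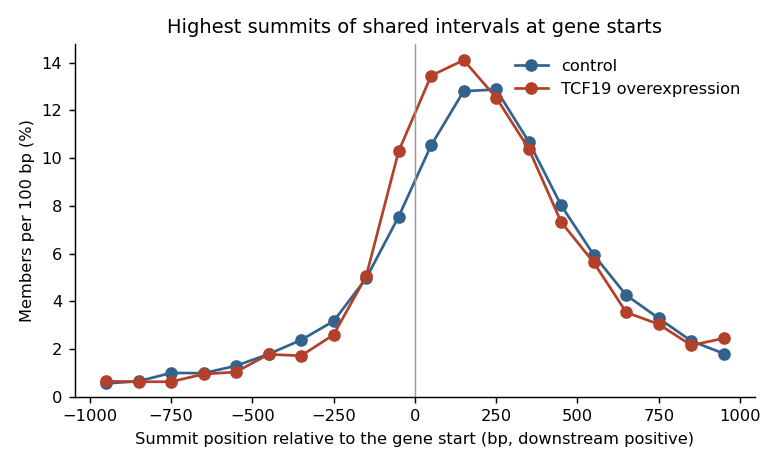
Share of 5684 1-to-1 pairs at gene starts (%) with the highest summit in each 100 bp bin (x axis, bp from the annotated start, downstream positive), for control and TCF19 overexpression. The lines are farthest apart in the bins on either side of the start, where overexpression is higher, with 10.29% against 7.55% just upstream and 13.46% against 10.54% just downstream.

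Starts and stops differed in both width and depth. Here and below a pair is placed by the gene end nearest to its overexpression summit. The earlier share of intervals at starts counted any interval with a start in its window. At starts the median widths were 727 bp with overexpression and 576 bp in control, and at the 686 pairs at stops they were 452 and 464 bp. The median summit distance was 150 bp at starts and 96 bp at stops. Median pileups were 17 with overexpression and 14 in control at starts, and 14 and 15 at stops. At head-to-head pairs of starts the widths were 776 and 530 bp. Median widths were larger with overexpression at starts and not at stops, where they were close to those over 10 kb from gene ends.

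Read depth at the summit was higher with overexpression in most pairs. The pileup had a median of 16 (quartiles 14 and 19) with overexpression and 14 (12 and 17) in control. The overexpression library was the shallower, with a genome-average pileup of 1.43 against 1.58. With each pileup divided by that average, the median log2 ratio of overexpression over control was 0.36 (quartiles 0.05 and 0.66), and without the division it was 0.22. In distant shared pairs the scaled median was 0.05. The scaled ratio was above 0 in 79.1% of gene-end pairs and 54.9% of distant ones. It was at least 2-fold higher with overexpression in 635 pairs (7.91%, against 2.87% of all shared pairs) and at least 2-fold higher in control in 20 (0.249%, against 0.983%). By place, the median was 0.41 at starts, 0.51 at head-to-head starts and 0.09 at stops. Local background, the depth expected around the summit, had a median of 2.73 in both libraries at gene ends, and 1.68 with overexpression and 1.86 in control in distant pairs.

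Counts this low leave wide errors on any single interval. The exact Poisson 95% intervals of the scaled pileups were apart, with overexpression higher, in 39 of 8026 pairs (0.486%, against 0.228% of all shared pairs). They were apart with control higher in 0 pairs, which allows a share of up to 0.0374%, against 0.0265% of all shared pairs. These intervals cover counting error only, because a summit is chosen as a maximum and PCR duplicates are not independent molecules. A difference at a single gene was therefore seldom larger than its counting error, and the spread between replicate libraries is unknown.

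**Figure D3:**
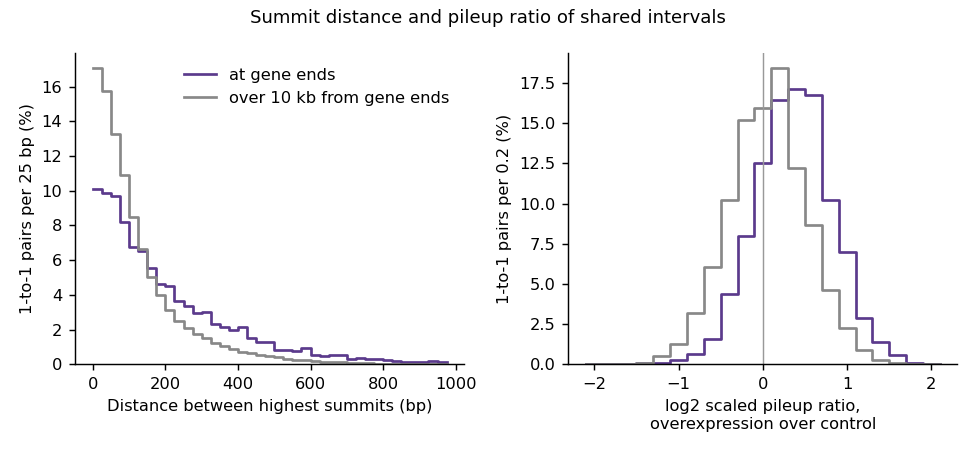
Left, distance between the highest summits of 1-to-1 pairs (bp) and right, log2 ratio of scaled pileups (overexpression over control), each as the share of pairs per bin (%) at gene ends and over 10 kb from them. Gene-end pairs have the longer distances (median 145 against 83 bp) and the higher ratios (median 0.36 against 0.05).

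The 6 pairs of highest ratio, among those with at least 15 reads in one library, were at gene starts, except CCDC50, whose strand was not known. DEPDC1 had a pileup of 24 (95% interval 15.4 to 35.7) with overexpression and 6 (2.2 to 13.1) in control, a log2 ratio of 2.15. NUP133 had 20 (12.2 to 30.9) and 6 (2.2 to 13.1), a log2 ratio of 1.88. The control pileup of 6 at both genes was the lowest of any 1-to-1 gene-end pair. DGUOK had 26 (17.0 to 38.1) and 8 (3.5 to 15.8), a log2 ratio of 1.85. NNT, the proton-pumping transhydrogenase of mitochondria, also had 26 and 8, in an interval of 954 bp against 273 bp in control. RIF1, a protein of replication timing and DNA break repair, had 35 (24.4 to 48.7) and 11 (5.5 to 19.7), a log2 ratio of 1.82. CCDC50 had the same pileups as RIF1. Widths were larger with overexpression at all 6, for instance 884 bp against 339 bp at DEPDC1 and 553 bp against 350 bp at NUP133.

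The 6 pairs of lowest ratio were chosen in the same way. DIPK2B had 6 (2.2 to 13.1) with overexpression and 21 (13.0 to 32.1) in control, a log2 ratio of -1.66. CRTAM, an adhesion molecule of activated T cells, had 6 and 18, a log2 ratio of -1.44. The overexpression pileup of 6 at both genes was the lowest of any 1-to-1 gene-end pair. CIITA, the activator of MHC class II genes, had 7 and 20 in intervals of 276 and 790 bp. The zinc finger genes ZNF484 and ZNF548 each had 8 and 22, both at the stop. TMEM217 had 7 and 19, also at the stop. Of the 6, 3 were at stops and the strand of the others was not known.

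**Figure D4:**
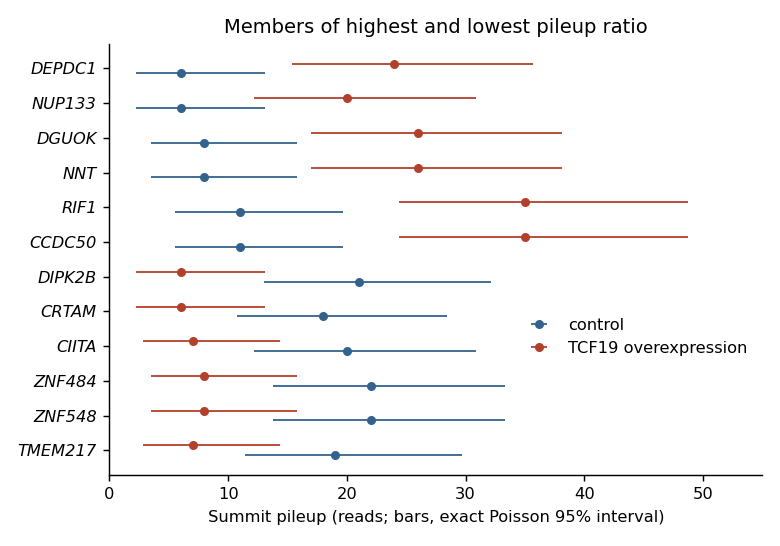
Summit pileup (reads) in control and with TCF19 overexpression for the 6 pairs of highest and the 6 of lowest scaled ratio; bars are exact Poisson 95% intervals of counting error. At RIF1 the pileup is 35 with overexpression and 11 in control, and at DIPK2B it is 6 and 21.

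The strongest intervals by the authors' fold enrichment over local background were at genes of many kinds. Genes of the listed multicopy families and LOC genes were left out of this order; several of them were higher, up to 18.27 at LOC101929601 and 14.91 at CCDC200. Of the rest, RHOXF2, a homeobox gene of the reproductive tract with a near-identical neighbour and so uncertain, had the highest fold, 11.53 in the overexpression list and 7.75 in the control list. ISLR2, a membrane protein of developing neurons, had 9.98 and 4.95, with pileups of 31 and 13. The interval at SENP1, a SUMO protease, with an end of PFKM, the muscle phosphofructokinase, also in its window, had 9.63 and 5.7. PSMD7, a lid subunit of the proteasome, had 8.96 and 6.18. ZNF595 had 9.04 and 7.19. The shared start region of MZT1, a partner of the gamma-tubulin ring, and BORA, an activator of mitotic kinases, had 8.83 and 5.03, with pileups of 30 and 12. COL6A5, a collagen chain, had 9.06 and 5.81, and COLEC10 with TNFRSF11B 9.21 and 5.03. CTAGE9 and TRIM74 were also among the 10 of highest fold after that exclusion; they were not on the multicopy list but have near copies, so their values are uncertain. The fold is on each list's own scale, so the pairs of values are not compared.

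By pileup the order was different. The start region of DHX32, a helicase, and FANK1 had 56 reads with overexpression and 40 in control. KMT2D, a histone H3 lysine methyltransferase recurrently mutated in cancers, had 51 (38.0 to 67.1) and 21 (13.0 to 32.1). HYAL1, a hyaluronidase, had 36 and 44, AQP6, an aquaporin, 25 and 36, and MUC4, a membrane mucin, 33 and 35. These 3 had local backgrounds of 6.57 to 9.36 with overexpression and 7.43 to 12.99 in control, above the median of 2.73. The backgrounds of KMT2D (6.82 with overexpression and 6.01 in control) and DHX32 (6.04 and 4.91) were above that median too. POLR2J3 (50 and 35) and the 2 intervals at CYP2D6 (47 and 61, and 48 and 58) have near-identical gene copies, and so does the gene of the deepest interval, CCDC200 (132 and 135). Their reads may come from several copies. In the CYP2D6 interval of 48 and 58 the highest overexpression summit lay outside the window. The listed multicopy families and LOC genes, which include CCDC200 but not POLR2J3 or CYP2D6, held 417 intervals (4.45%). Leaving these 417 out gave a median log2 ratio of 0.37 and a width difference of 81 bp.

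The lists of mitosis and replication genes had shares above the background of 46.7%. Of the 20 mitosis genes, 13 had one (65.0%) and the other 7 had a gene-end interval in the overexpression list alone, so none was without an interval. Of all protein-coding genes, 18.0% had a gene-end interval in the overexpression list alone and 29.8% had none in either list. The 18.0% are genes without a shared interval, and they include 556 genes that also had a separate interval in the control list alone. MAD2L1, a spindle checkpoint protein, had a pileup of 26 with overexpression and 11 in control, and CDK1, the mitotic cyclin-dependent kinase, had 23 and 13. BUB1B, a checkpoint kinase, had 20 and 14, and TPX2, a spindle assembly factor, 20 and 15. Replication genes had 20 of 33 (60.6%), with median widths of 782 bp with overexpression and 418 bp in control. Among them PCNA, the sliding clamp, had 30 and 17, RFC4, a subunit of the clamp loader, 22 and 16, MCM5, a helicase subunit, 17 and 18, and GINS2, a partner of that helicase, 18 and 18. DNA repair genes had 16 of 31 (51.6%), near the background, with 13 (41.9%, against 18.0% of all genes) in the overexpression list alone. Of these 13, 1 also had a separate interval in the control list alone. Unlike in the replication list, the median widths of DNA repair genes were 600 bp with overexpression and 635 bp in control. FANCD2, of the Fanconi anaemia pathway, had 23 and 10, and XRCC6, the Ku70 subunit, 15 and 22.

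The housekeeping lists lay on both sides of the background. Nuclear pore genes had 19 of 30 (63.3%), with NUP54 at pileups of 26 and 13, NUP85 at 26 and 18 and NUP210 at 17 and 23. Ubiquitin-conjugating enzymes had 21 of 34 (61.8%), with median widths of 990 bp with overexpression and 567 bp in control. UBE2G1 had 26 and 13 in intervals of 1559 and 419 bp, and UBE2N 24 and 16. The highest overexpression summit of the UBE2G1 interval, to which the 26 belongs, lay outside the window. Translation initiation factors had 28 of 46 (60.9%), led by EIF4A2, an RNA helicase of cap-dependent initiation, with 37 and 16. Chaperonin and heat shock genes had 39 of 69 (56.5%), aminoacyl-tRNA synthetases 19 of 34 (55.9%) and exosome and RNA helicase genes 34 of 61 (55.7%), among them DDX55 with 32 and 15. Near or below the background were the subunits of complex I and ATP synthase with 26 of 54 (48.1%), mitochondrial ribosomal proteins with 36 of 77 (46.8%), RNA polymerase II and Mediator genes with 33 of 73 (45.2%) and cytosolic ribosomal proteins with 38 of 86 (44.2%). Proteasome genes had 17 of 39 (43.6%) and a further 17 in the overexpression list alone, against 18.0% of all genes. Of the further 17, 1 also had a separate interval in the control list alone. Spliceosome genes had 27 of 54 (50.0%).

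Within these lists single genes spanned a range of ratios. RPS29, a ribosomal protein with its neighbour LRR1, had 32 with overexpression and 16 in control, while RPS26 had 16 and 19. ATP5PD, a subunit of ATP synthase, had 30 and 14, and NDUFC1, of complex I, 22 and 21. MRPL51 of the mitochondrial ribosome had 29 and 16, and MRPS7 22 and 23. YARS1, the cytosolic tyrosyl-tRNA synthetase, had 24 and 12, and YARS2, its mitochondrial counterpart, 17 and 22. Ratios thus ranged within each of these groups, and each pileup carries a wide counting error.

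Histone demethylases and methyltransferases had the highest median ratio of the 27 lists of genes. Their count was at the background, 17 of 37 (45.9%), and the median log2 ratio of the 15 in 1-to-1 pairs was 0.80, against 0.36 for all shared gene-end pairs. KMT2A, an H3 lysine methyltransferase, had 29 with overexpression and 15 in control. KDM6A, an H3 lysine demethylase encoded on the X chromosome, had 30 and 12, and KDM5A, which removes methyl groups from another lysine of H3, 29 and 12. With KMT2D these were the 4 of highest summed pileup in the list; KDM6A and KMT2D were not in 1-to-1 pairs and are not part of that median. The ratio of this list was read after all lists had been computed, and a list of this size was not compared with others by a test.

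**Figure D5:**
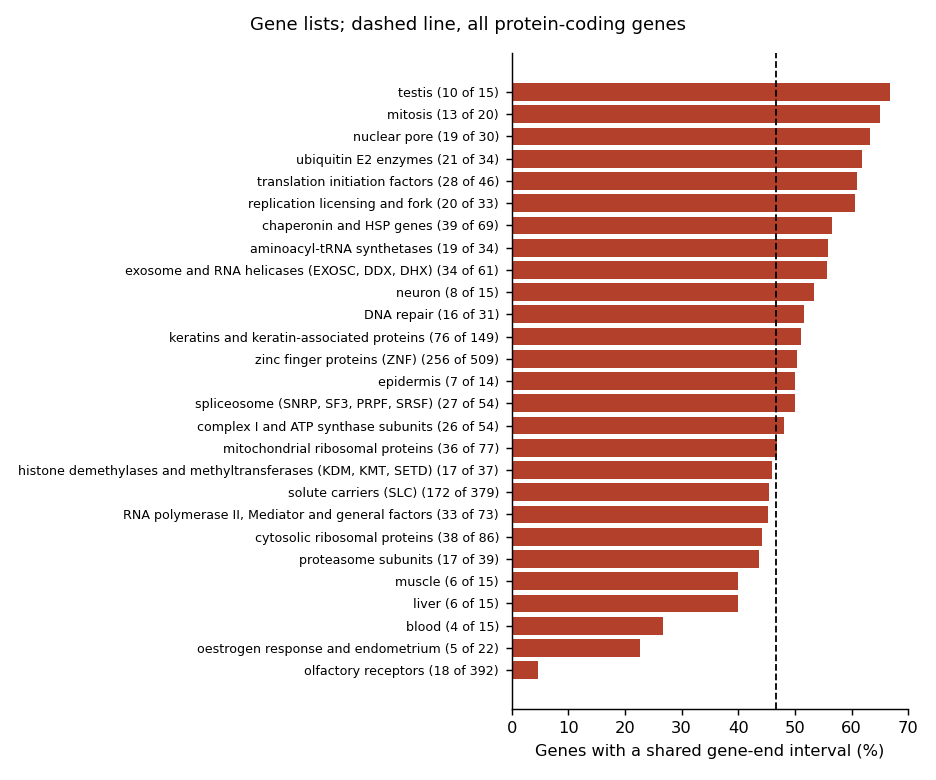
Share of each list's genes with a shared gene-end interval (%), with the number of genes in brackets; the dashed line is the share of all protein-coding genes (46.7%). The lists run from 4.59% for olfactory receptors to 66.7% for the testis list.

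Lists of genes of other tissues were not uniformly low. The testis list had 10 of 15 (66.7%), among them the sperm protamine genes PRM1 (21 and 15) and PRM2 (21 and 16) and SYCP1, of the synaptonemal complex (17 and 18). ACR, ODF1, PGK2, TEX11 and TNP1 had no gene-end interval in either list. The neuron list had 8 of 15 (53.3%), with SNAP25, a synaptic vesicle fusion protein, at 27 and 16. The epidermis list had 7 of 14 (50.0%), with KRT1 at 27 and 18. Liver and muscle genes had 6 of 15 each (40.0%), including SERPINA1 at 23 and 21 and MYOG at 20 and 15. Blood genes had 4 of 15 (26.7%), with GATA1 at 20 and 12, and 2 when q was held to 0.01. Median widths were larger in control in the testis list (526 bp with overexpression and 566 bp in control) and the neuron list (507 and 597 bp). They were larger with overexpression in the liver, muscle, blood and epidermis lists.

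The list of oestrogen response and endometrium genes had 5 of 22 (22.7%, against 46.7% of all genes). SOX17, a transcription factor of the endometrial epithelium, had a pileup of 25 with overexpression and 18 in control in intervals of 1787 and 1297 bp. GREB1, an oestrogen-induced gene, had 17 and 16, WNT7A 18 and 13, and ESR2, the beta oestrogen receptor, 14 and 15. Another 5 of the 22 (22.7%, against 18.0% of all genes) had an interval in the overexpression list alone, and 10 (45.5%, against 29.8%) had none in either list. Of the 5 with overexpression alone, 1 also had a separate interval in the control list alone.

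Large gene families spread widely. Olfactory receptor genes had 18 of 392 (4.59%), 28 with a window of 2000 bp, and 346 (88.3%, against 29.8% of all genes) had no gene-end interval in either list. Keratins and keratin-associated proteins had 76 of 149 (51.0%), with KRT79 at 30 and 26 and KRT8 at 24 and 28. Zinc finger genes had 256 of 509 (50.3%), with ZNF639 at 30 and 23. Solute carriers had 172 of 379 (45.4%), with SLC38A2, an amino acid transporter, at 31 and 21 in an interval of 1937 bp. Multicopy families had 394 of 1285 (30.7%), where the placement of reads is uncertain. Both keratins and olfactory receptors had a median log2 ratio of 0.15, against 0.33 for zinc finger genes and solute carriers. Median widths were 516 bp with overexpression and 561 bp in control for keratins, and 444 and 538 bp for olfactory receptors. For zinc finger genes they were 630 and 549 bp, and for solute carriers 758 and 640 bp.

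Base composition went with the ratio and the width. Over the 300 bases at the start, the 7124 promoters with a shared interval had a median GC content of 65.3%, close to the 65.0% of promoters called with overexpression alone. It was 56.3% in promoters called in control alone, 56.0% in those with no start interval and 62.7% over all 15812. CpG-rich promoters had observed over expected CpG above 0.6 and GC above 50%. They made up 79.8% of the promoters with a shared interval and 79.9% of those called with overexpression alone. The share was 35.4% in control alone and 63.3% over all. Among 1-to-1 pairs at starts, the 4512 with a CpG-rich promoter had median widths of 760 bp with overexpression and 577 bp in control and a median log2 ratio of 0.45. The other 1172 had 618 and 572 bp and a ratio of 0.26. By GC content, the median width difference went from 26 bp below 50% to 58 bp from 50 to 60%, 96 bp from 60 to 70% and 125 bp from 70% upwards. The part of GC content in the ratio and the width was not tested. These classes were set after the values had been seen.

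Of the 10 motifs, the GC box differed most in share between promoters with a shared interval and all promoters. GGGCGG, the GC box, was in 69.6% of promoters with a shared interval and 58.5% of all; CCGGAAGT, an ETS site, was in 7.24% and 6.2%; the NRF1 motif, in 2.23% and 1.76%; and CACGTG in 9.94% and 8.87%. TATAAA was in 6.64% and 9.64%, and CTTTGTT in 3.27% and 4.14%. CCAAT was in 34.6% and 36.3%, TGACGTCA in 2.95% and 2.59%, the YY1 motif in 1.49% and 1.37%, and TTTCGCGC, an E2F site, in 1.09% and 0.816%. Both strands were searched over the 300 bases. Promoters called with overexpression alone had the GC box in 70.2%, an ETS site in 8.99% and the NRF1 motif in 2.69%. They had TATAAA in 5.02%, CTTTGTT in 2.93% and CCAAT in 38.7%. Of these, all but CCAAT differed from all promoters in the same direction as in the shared set, so those differences were not particular to it. Within CpG-rich promoters the GC box was in 79.3% of those with a shared interval and 79.4% of all, CCAAT in 33.5% and 35.2%, TATAAA in 3.91% and 4.01% and the NRF1 motif in 2.64% and 2.65%. The order turned round for several motifs that were more common in the shared set over all promoters. In the CpG-rich class ETS was in 8.46% and 9.0%, TGACGTCA in 3.38% and 3.61%, CACGTG in 10.7% and 11.0% and the YY1 motif in 1.76% and 2.05%. The sets compared share many promoters, so the shares are not independent.

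Chromosomes differed in how many of their genes had a shared interval. The share was 64.4% on chromosome 18 and 63.3% on chromosome 13, and 24.4% on chromosome 19, 28.4% on chromosome 22, 34.9% on chromosome 16 and 35.8% on chromosome 11. Chromosome 19, which is dense in genes, had the lowest share of genes but the highest share of its shared intervals at gene ends, 21.0%, against 9.85% on chromosome 13. The median log2 ratio ran from 0.50 on chromosome 4 to 0.23 on chromosome 19 and 0.21 on chromosome 22, above the value of distant pairs on each of these (0.15, 0.05 and 0.06). On chromosome 19 the local background had a median of 3.12 with overexpression and 3.89 in control, and on chromosome 4 it was 2.32 and 1.97.

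The 336 shared intervals whose nearest summit lay 901 to 1000 bp from a gene end had a median width of 554 bp, a pileup of 16 and a fold of 3.84. The 284 just outside, at 1001 to 1100 bp, had 458 bp, 15 and 3.95. Gene-end intervals that overlapped a control interval by 1 to 50 bp (99) had a median width of 421 bp and a fold of 3.43, and those that missed one by a gap of 0 to 50 bp (81) had 421 bp and 3.71. Over the whole set, shared gene-end intervals had a median width of 710 bp and those of the overexpression list alone 428 bp, at the same median pileup of 16. The median fold was 4.49 and 3.4 in these sets, and the local background of the unshared ones had a median of 4.0.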

How the data were processed

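TCF19 ChIP-seq was measured in 1 control and 1 TCF19-overexpression library of Ishikawa cells. The submitters' processing notes name BWA 0.7.12, MACS2 2.1.0 and hg38. What settings were used, how duplicates were handled and whether there was an input is not given in the sources used here. Peak calls were made separately for each library. The deposited columns are the interval, a score, a fold enrichment (ratio of pileup to local background), −log10 p-values, −log10 q-values and the summit position; all are the authors' values. The deposited −log10 q-value starts at 1.301 in both lists, a q of 0.05. The score was not used.

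Intervals with several summits were counted once. Whole-read pileups and local backgrounds were recovered from fold and −log10 p. The misfit was at most 0.001 at 99.998% of control and 99.997% of overexpression summits. The 4 and 3 others kept the pileup of best fit. The genome average pileup, taken as the depth, was the floor of the background, 1.58 in control and 1.43 with overexpression. Read totals are unknown. Gene ends came from RefSeq (GRCh38.p14; 19974 protein-coding genes, with strand for 15812); exons and introns were not assigned. Shares have 95% Wilson intervals and pileups exact Poisson intervals, which cover counting error only. No test was run, since each group had 1 library. Python 3.11.15, numpy 2.4.6, pandas 2.3.3 and scipy 1.17.1 were used, and the recovery and pairing were tested on simulated data.

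Members and gene lists were chosen with earlier results of these data known. Genes were named by a rule: highest fold (10) and highest pileup in each library (6), both without the listed multicopy families and LOC genes, widest (6), highest and lowest ratio (6 each, at least 15 reads in one library), largest summit distance or same base (up to 6 each, at least 15 reads in both), and up to 4 genes of highest summed pileup per list. Examples named otherwise are marked in the text. Alternatives were other windows, overlaps, q thresholds, pairings and scalings.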

Additional observations from a re-analysis of the deposited data

How the results depend on the processing

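No paired analysis was possible because each group had 1 library. No alternative reversed the sign of a median. The number of shared gene-end intervals ran from 6258 (q of 0.001) to 11480 (window of 2000 bp), and that of genes from 6535 to 10677. With a window of 500 bp the median width difference was 90 bp and the log2 ratio 0.39; with 2000 bp they were 59 bp and 0.32, the summit distance was 135 bp, and 28 olfactory receptor genes had a shared interval. Overlap of 50% of both intervals gave a width difference of 41 bp and a distance of 124 bp. A q of 0.01 gave a log2 ratio of 0.35 and 2 blood genes. Using every interval with its largest overlap gave a distance of 159 bp, and the nearest pair of summits 101 bp. Unscaled pileups gave a log2 ratio of 0.22, and intervals of low local background in both libraries 0.39. These 14 values moved beyond the interval of the median or 1.5 times the count, and the cause was not tested; 74 others stayed within it. Low depth limits single intervals: a pileup of 16 carries a wide counting interval.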
